A study of Mus musculus with 6 samples.

Results

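A group of 9 genes that set how long messenger RNAs last was followed in activated mouse regulatory T cells: the ZFP36 family (Zfp36, Zfp36l1 and Zfp36l2), the BTG pair (Btg1 and Btg2), the Regnase pair (Zc3h12a, or Regnase-1, and Zc3h12d, or Regnase-4) and the Roquin pair (Rc3h1, or Roquin-1, and Rc3h2, or Roquin-2). They were picked by symbol as known decay regulators, with earlier results of these data known, and they are 9 of the 47643 reference genes in the deposited tables. All 9 were among the 12186 genes tested, those with at least 1 FPKM (fragments per kilobase of transcript, scaled to the size of the library) in 3 or more libraries. The cells were natural regulatory T cells (nTregs) from spleens of C57BL/6 mice carrying Foxp3-DTR/EGFP, an allele that makes Foxp3-expressing cells also produce a diphtheria toxin receptor and a green fluorescent protein. Both groups carried this allele, and both were activated for 2 days with plate-bound anti-CD3, soluble anti-CD28 and IL-2 and then sorted on GFP. The 3 EP4 agonist libraries came from cells given an EP4 agonist at 100 nM for the following 6 hours (EP4 is 1 of the receptors that sense prostaglandin E2), and the 3 vehicle libraries from cells given DMSO. The agonist, and the age and sex of the mice, are not named in the labels, and nothing says that replicates were separate mice or cultures, so the p-values reflect library-to-library spread that may be technical.

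Most messenger RNAs are destroyed after their poly(A) tail is shortened by deadenylases, chiefly the CCR4-NOT complex, and the body is then degraded from either end. ZFP36 proteins bind AU-rich elements in 3′ untranslated regions (UTRs) and Roquin proteins bind stem-loops there, and both bring in CCR4-NOT, while BTG1 and BTG2 bind the deadenylases directly and Regnase-1 cuts stem-loop RNAs itself. In T cells these proteins restrain activation: Roquin-1 and Regnase-1 limit co-stimulatory and cytokine mRNAs, BTG1 and BTG2 help keep T cells quiescent, and T cell receptor signalling inactivates Roquin-1, Roquin-2 and Regnase-1 through the protease MALT1.

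The libraries held 4.32 to 4.98 gigabases of aligned reads with agonist and 4.49 to 5.65 with vehicle. All 5 regulatory T cell markers were present, with Foxp3 at 124 to 154 FPKM with agonist and 109 to 153 with vehicle. Their summed level did not overlap between groups (2102 to 2205 FPKM with agonist and 1612 to 1889 with vehicle), Ikzf2 and Tnfrsf18 passing with the pairing described below. Tnfrsf18 (690 to 816 FPKM with agonist and 395 to 639 with vehicle) and Ctla4 (314 to 414 with agonist and 206 to 277 with vehicle) did not overlap. Foxp3, Il2ra and Ikzf2 did. The sum of 5 T cell markers overlapped (954 to 1087 FPKM with agonist and 992 to 1125 with vehicle). Among them Trac was lower with agonist without overlap (342 to 382 FPKM with agonist and 399 to 459 with vehicle). Markers of other cells were low: the summed FPKM of 5 B cell markers was 3.69 to 6.20 with agonist and 5.64 to 5.93 with vehicle, that of 5 myeloid markers 4.15 to 5.39 with agonist and 2.75 to 4.25 with vehicle, and that of 3 CD8 T cell markers 4.55 to 6.42 with agonist and 3.89 to 5.43 with vehicle. The myeloid sum counted both of 2 entries of Itgam. Most of these sums came from 1 gene each: Cd79b for B cells, Cd68 for myeloid cells and Cd8b1 for CD8 T cells. The dendritic cell (0.136 to 0.958 with agonist and 0.105 to 0.581 with vehicle) and NK cell sums (0.170 to 0.699 with agonist and 0.388 to 1.43 with vehicle) were lower still, and the erythroid sum, mostly Hba-a1, was 0.601 to 2.63 with agonist and 1.47 to 5.76 with vehicle. Hba-a1 itself was lower with agonist (log2 -0.66, limma adjusted p 0.0368 with that pairing and 0.528 without it). Siglech, a defining marker of plasmacytoid dendritic cells, was at 0 in all 6 libraries. Mitochondrial genes took 5.88 to 6.80% of FPKM with agonist and 4.51 to 6.09% with vehicle. The part of these differences in the results below was not tested.

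With the agonist, Zfp36 was lower and Zfp36l1, Btg1, Btg2 and Rc3h1 were higher in all 3 same-numbered pairs of libraries, while Zfp36l2 and both Regnase genes were close to level. Of all tested genes, 31.6% were lower and 20.7% higher in all 3 pairs. Whether the differences of Zfp36, Zfp36l1, Btg1 and Btg2 pass depends on how the libraries are matched, and Rc3h1 did not pass either way. In limma's moderated test without pairing, 0 of the 9 genes had a Benjamini-Hochberg adjusted p under 0.05, against 0.394% of all tested genes, and 2 of the 9 (Zfp36 and Btg2) had an unadjusted p under 0.05, as had 14.0% of all tested genes. Libraries with the same replicate number deviated from their group means together, with correlations of 0.512, 0.404 and 0.321, so the number was also fitted as a block. In that fit 3 of the 9 rose (Zfp36l1, Btg1 and Btg2), against 4.09% of all tested genes, and 1 fell (Zfp36), against 6.41%. The 9 genes had a median log2 difference of 0.14, against -0.03 over all tested genes. "Rose" and "fell" refer below to the fit with the block. That fit is secondary: its pairing was read from these same libraries, and the labels do not give it. Log2 differences are agonist minus vehicle on the log2(FPKM + 1) scale, which understates changes at low FPKM.

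The blocked calls rest on 3 pairs and are weaker when 1 is left out. With each pair left out in turn, the limma adjusted p ran from 0.0521 to 0.104 for Zfp36, from 0.0853 to 0.162 for Zfp36l1 and from 0.0672 to 0.128 for Btg2, so each of these calls was lost. For Btg1 it was 0.0402 without pair 1, the 1 call that remained, 0.138 without pair 2 and 0.157 without pair 3. The 4 directions held in each of these limma fits. Over all 12186 tested genes, calls fell from 1279 with all 3 pairs to 241, 0 and 1 without pairs 1, 2 and 3. In bulk libraries like these, fewer cells of a type and less RNA per cell cannot be told apart.

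**Figure D1:**
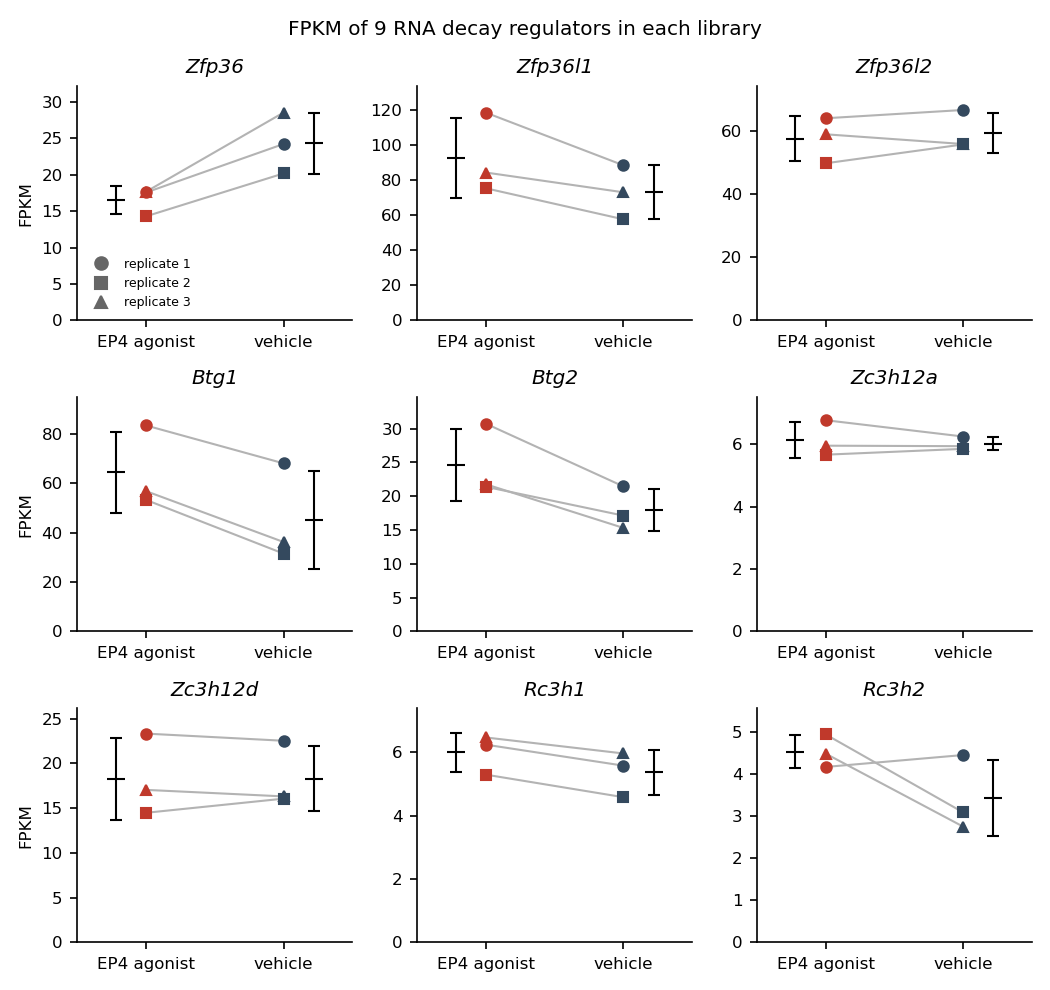
FPKM of each of the 9 genes (vertical axes, starting at 0) in the 3 EP4 agonist and 3 vehicle libraries, where marker shapes give the replicate number, grey lines join libraries of the same number, and bars at the sides give mean and SD (n = 3). Zfp36 is lower with agonist with no overlap (14.3 to 17.7 FPKM with agonist and 20.2 to 28.5 with vehicle), and the lines of Zfp36l1, Btg1, Btg2 and Rc3h1 all slope the same way.

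**Figure D2:**
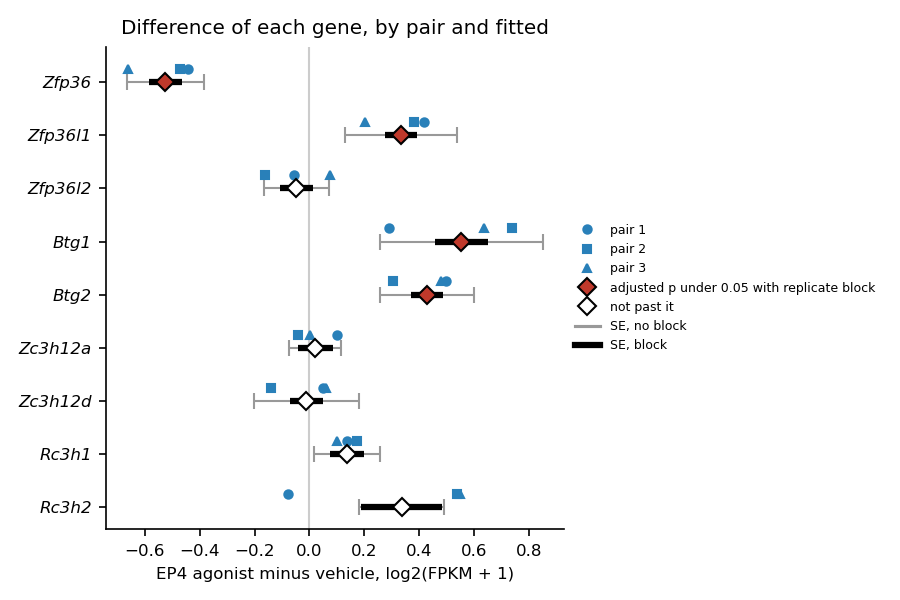
Difference of each gene, EP4 agonist minus vehicle, in log2(FPKM + 1), with small symbols for the 3 same-numbered pairs, diamonds for the fitted difference, thin bars for its SE without the replicate block and thick bars for its SE with it. The 4 filled diamonds (Zfp36, Zfp36l1, Btg1 and Btg2) passed with the block, where the SE of Zfp36l1 was 0.0586 against 0.206 without it.

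By level, the 9 genes formed the same 4 tiers in both groups. Per length, Zfp36l1, Btg1 and Zfp36l2 were the most abundant (mean 92.9, 64.5 and 57.5 FPKM with agonist and 73.2, 45.2 and 59.3 with vehicle), with ranges that overlapped between neighbours. Btg2, Zc3h12d and Zfp36 came next at means between 16.5 and 24.6 FPKM with agonist and between 18.0 and 24.3 with vehicle, and their ranges did not meet those of the first 3. Zc3h12a and Rc3h1 lay near 6 FPKM with overlapping ranges (means 6.12 and 6.01 with agonist, 6.01 and 5.38 with vehicle). Rc3h2 was lowest, its range just under that of Rc3h1 in each group, but this last step holds only for the reference genes: read from the assembled loci described below, the ranges of Rc3h2 (5.85 to 6.16 FPKM with agonist and 4.11 to 5.79 with vehicle) and Rc3h1 (5.41 to 6.47 with agonist and 4.72 to 5.97 with vehicle) overlapped. The order within the middle tier differed between groups: Btg2 was first and Zfp36 last of the 3 with agonist, Zfp36 first and Btg2 last with vehicle. Zfp36l1 stood above 93.3% of all tested genes in mean FPKM and Rc3h2 above 24.5%.

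Zfp36 encodes tristetraprolin, the founding AU-rich element binder, which limits Tnf and other cytokine mRNAs. It had 17.6, 14.3 and 17.7 FPKM in the 3 agonist libraries, against 24.2, 20.2 and 28.5 FPKM in the 3 vehicle libraries. Every agonist library was below every vehicle library, which was so, in either direction, for 19.4% of all tested genes. The mean was 16.5 ± 1.92 FPKM with agonist and 24.3 ± 4.18 with vehicle (SD, n = 3 each), a log2 difference of -0.52 with a limma adjusted p of 0.186 without the block (SE 0.140) and 0.0208 with it (SE 0.0616). The same-numbered pairs gave log2 differences of -0.44, -0.47 and -0.66, and a decrease in all 3 pairs was seen in 31.6% of all tested genes. Zfp36 lies at chr7:28376784-28380253 on the minus strand (mm10, identifier ENSMUSG00000044786.6). In vehicle replicate 3, the library with most Zfp36, an assembled locus of 31.9 FPKM overlapped it from the opposite strand. The strand setting of the quantification is not given in the sources used here, so whether its reads reached the Zfp36 value cannot be read from the tables. The fitted difference without pair 3 was -0.46.

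Zfp36l1, a paralog with the same RNA-binding zinc fingers that acts with Zfp36l2 in lymphocyte development, had 119, 75.5 and 84.5 FPKM with agonist, against 88.6, 57.8 and 73.2 with vehicle. The groups overlapped, with replicate 1 high and replicate 2 low in each, but every pair was higher with agonist, by 0.42, 0.38 and 0.20 in log2. Such an increase in all 3 pairs was seen in 20.7% of all tested genes and in 4 of the 9 (Zfp36l1, Btg1, Btg2 and Rc3h1). The means were 92.9 ± 22.8 FPKM with agonist and 73.2 ± 15.4 with vehicle (SD, n = 3 each), a log2 difference of 0.33 with a limma adjusted p of 0.513 without the block and 0.0360 with it. The unblocked difference was 0.15 without agonist replicate 1 and 0.18 without vehicle replicate 2. An antisense gene, Gm26669, was listed at up to 2.06 FPKM in any library. Zfp36l1 lies at chr12:80107760-80113013 on the minus strand (ENSMUSG00000021127.6).

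Zfp36l2 had 63.9, 49.7 and 58.9 FPKM with agonist, against 66.6, 55.7 and 55.8 with vehicle. The groups overlapped and the pairs went both ways (log2 -0.06, -0.16 and 0.08), with limma adjusted p values of 0.900 without the block and 0.647 with it. The fitted difference, -0.05 with an SE of 0.119, turned to 0.03 after quantile normalization. Zfp36l2 lies at chr17:84183931-84187947 on the minus strand (ENSMUSG00000045817.8).

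The summed level of the ZFP36 family overlapped between groups, at 200.1, 139.5 and 161.0 FPKM with agonist and 179.4, 133.6 and 157.5 with vehicle. Zfp36 made up 8.77, 10.2 and 11.0% of the sum with agonist and 13.5, 15.1 and 18.1% with vehicle, with no overlap. Zfp36l1 made up 59.3, 54.1 and 52.5% with agonist and 49.4, 43.2 and 46.5% with vehicle, again with no overlap. Zfp36l2 overlapped, at 31.9 to 36.6% with agonist and 35.4 to 41.7% with vehicle. There were 6.76, 5.28 and 4.78 times as many Zfp36l1 as Zfp36 FPKM with agonist and 3.66, 2.86 and 2.56 times as many with vehicle, a log2 difference of 0.89 in this ratio. An exact two-sided permutation test gave p = 0.1, the smallest that 3 libraries against 3 allow.

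**Figure D3:**
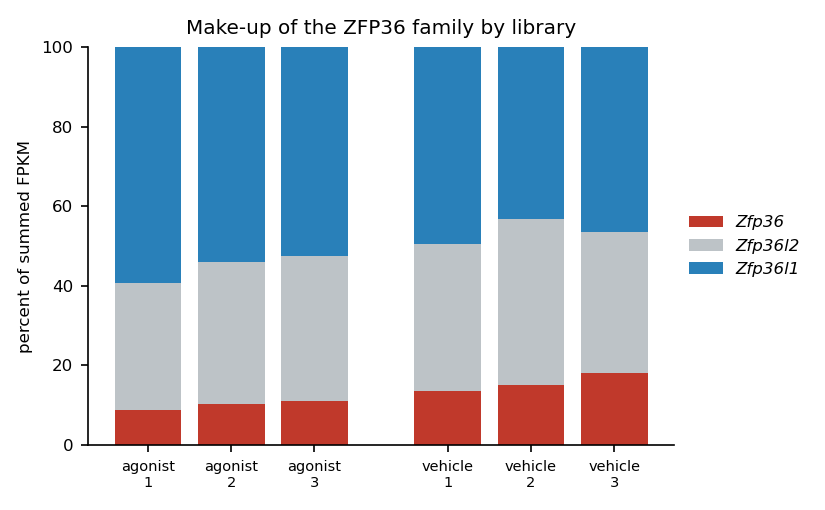
Share of Zfp36, Zfp36l2 and Zfp36l1 in their summed FPKM (percent, stacked from 0 to 100) in each of the 3 EP4 agonist and 3 vehicle libraries. The Zfp36 share at the base is 8.77 to 11.0% with agonist and 13.5 to 18.1% with vehicle, and the Zfp36l1 share at the top is 52.5 to 59.3% with agonist and 43.2 to 49.4% with vehicle.

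The 3 ZFP36 mRNAs themselves carry the letters their proteins bind, and 1 stretch from each 3′ UTR is shown for that reason, from GENCODE M21 transcripts (GRCm38, the assembly that mm10 names), 5′ to 3′ on the minus strand, with each ATTTA in capitals. Each window was picked as 30 bases with most TATTTAT and then most ATTTA, so it is not typical of its 3′ UTR. The windows are chr7:28376958-28376987 for Zfp36, chr12:80108431-80108460 for Zfp36l1 and chr17:84184918-84184947 for Zfp36l2.
Zfp36: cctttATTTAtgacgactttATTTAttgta
Zfp36l1: cttATTTAacttatcaaaacgtATTTAttg
Zfp36l2: gaaaaactATTTAacttATTTAttatcttg
The whole Zfp36 3′ UTR (774 bases) held 3 ATTTA pentamers, or 3.88 per kilobase, and all 3 lay within the longer form TATTTAT. The Zfp36l1 3′ UTR (1835 bases) held 9, or 4.91 per kilobase, and the Zfp36l2 3′ UTR (1822 bases) 5, or 2.74 per kilobase, and each held 3 TATTTAT heptamers. The median tested gene held 1 pentamer, or 1.29 per kilobase. Of 9989 tested genes with a 3′ UTR, 68.9% held a pentamer and 29.7% a heptamer. All 9 genes held at least 2 pentamers. Zc3h12d had the lowest density, at 0.859 per kilobase, and Rc3h2 held the most, 25 in 5331 bases. The letters went with no single direction: among the 6 genes with a heptamer, Zfp36 fell, Zfp36l1 and Btg2 rose, and Zfp36l2, Rc3h1 and Rc3h2 did not pass. A match describes the letters and does not show binding.

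Btg1 and Btg2, antiproliferative adaptors that bring deadenylases to mRNAs, were both higher with agonist. Btg1 had 83.4, 53.2 and 56.8 FPKM with agonist, against 68.0, 31.5 and 36.2 with vehicle. Replicate 1 stood well above replicates 2 and 3 in both groups and the groups overlapped, while the pairs differed by 0.29, 0.74 and 0.64 in log2. The means were 64.5 ± 16.5 FPKM with agonist and 45.2 ± 19.9 with vehicle (SD, n = 3 each), a log2 difference of 0.55 and the highest of the 9, with a limma adjusted p of 0.453 without the block (SE 0.297) and 0.0352 with it (SE 0.0959). Without vehicle replicate 1 the unblocked difference was 0.88, and without vehicle replicate 2 it was 0.34. Btg1 lies at chr10:96617001-96622813 on the plus strand (ENSMUSG00000036478.7).

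Btg2 had 30.7, 21.4 and 21.8 FPKM with agonist, against 21.5, 17.1 and 15.3 with vehicle. The groups overlapped by a single value on each side: the lowest agonist value (21.40) was just under the highest vehicle value (21.45). The pairs differed by 0.50, 0.31 and 0.48 in log2, and the means were 24.6 ± 5.28 FPKM with agonist and 18.0 ± 3.16 with vehicle (SD, n = 3 each). The log2 difference of 0.43 had a limma adjusted p of 0.332 without the block and 0.0245 with it, and was 0.26 without agonist replicate 1. Btg2 lies at chr1:134075170-134079120 on the minus strand (ENSMUSG00000020423.6). Its share of the summed Btg1 and Btg2 FPKM overlapped between groups, at 26.9 to 28.7% with agonist and 24.0 to 35.2% with vehicle, and the ratio of the pair gave an exact permutation p of 0.7.

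EP4 raises cyclic AMP, and the factor CREB, which answers to cyclic AMP, binds the element TGACGTCA or its shorter parts TGACG and CGTCA. For that reason the 250 bases before the start of Btg2 and Btg1 are shown from RefSeq (GRCm38.p6), 5′ to 3′ on the strand of the gene, with these letters in capitals. The windows are chr1:134079156-134079405 (minus strand) for Btg2 and chr10:96616751-96617000 (plus strand) for Btg1.
Btg2: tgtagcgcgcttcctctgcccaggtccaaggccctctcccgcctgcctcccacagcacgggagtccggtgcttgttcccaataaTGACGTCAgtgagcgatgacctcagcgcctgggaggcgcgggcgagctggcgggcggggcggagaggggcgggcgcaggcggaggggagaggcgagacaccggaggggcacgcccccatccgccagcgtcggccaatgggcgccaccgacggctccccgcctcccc
Btg1: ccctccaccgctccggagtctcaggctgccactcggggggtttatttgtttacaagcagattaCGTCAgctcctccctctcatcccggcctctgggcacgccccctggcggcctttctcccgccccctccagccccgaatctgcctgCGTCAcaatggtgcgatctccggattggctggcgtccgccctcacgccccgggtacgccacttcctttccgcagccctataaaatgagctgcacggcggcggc
Promoter windows of 300 bases, reaching 50 bases past the start, were listed for 8 of the 9 genes, and both strands were searched. The full element was in 1 of the 8, Btg2, beginning at position -166 from the start. The short letters were in 3 of the 8: Btg2, where both short forms lie within the full element, Btg1 at positions -187 and -103, and Zc3h12a at position 6. Among the windows of 10115 tested genes, 3.31% held the full element and 33.0% a short one, and over all 32851 windows these shares were 1.79% and 20.8%. Zfp36l1 rose and had none of these letters in its window, and Zc3h12a had a short one and did not pass. These matches describe letters only and do not show binding or regulation. A part of CREB in these differences was not tested.

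The Regnase genes differed by less than the spread between libraries. Zc3h12a, the endonuclease that cuts stem-loops in cytokine and activation mRNAs, had 6.76, 5.66 and 5.95 FPKM with agonist, against 6.24, 5.85 and 5.93 with vehicle. All 3 vehicle values lay inside the agonist range, and the log2 difference was 0.02 (SE 0.0939) with limma adjusted p values of 0.947 without the block and 0.858 with it. Zc3h12d, a related protein of lymphocytes, had 23.3, 14.5 and 17.1 FPKM with agonist, against 22.5, 16.1 and 16.3 with vehicle. Its groups overlapped throughout, replicate 1 being the highest in each, and the means were equal to 3 digits, at 18.3 ± 4.56 FPKM with agonist and 18.3 ± 3.66 with vehicle (SD, n = 3 each). The log2 difference was -0.01 (SE 0.192), with limma adjusted p values of 0.988 without the block and 0.928 with it, and its sign changed with the scaling (0.03 after upper quartile scaling). Zc3h12d made up 71.9 to 77.5% of the summed FPKM of the pair with agonist and 73.3 to 78.3% with vehicle. Zc3h12a lies at chr4:125118423-125127840 on the minus strand (ENSMUSG00000042677.7) and Zc3h12d at chr10:7832470-7870397 on the plus strand (ENSMUSG00000039981.5).

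The Roquin genes were somewhat higher with agonist and did not pass. Rc3h1, whose sanroque mutation causes systemic autoimmunity in mice, had 6.25, 5.30 and 6.47 FPKM with agonist, against 5.58, 4.59 and 5.97 with vehicle. The groups overlapped, and each pair was higher with agonist, by 0.14, 0.17 and 0.10 in log2. In limma it had an adjusted p of 0.656 unblocked and 0.210 blocked. Rc3h2, its partly redundant paralog, had 4.18, 4.95 and 4.49 FPKM with agonist, against 4.46, 3.09 and 2.76 with vehicle. Vehicle replicate 1 lay inside the agonist range and vehicle replicates 2 and 3 below it, so pair 1 differed by -0.08 and pairs 2 and 3 by 0.54 and 0.55. The log2 difference of 0.34 had limma adjusted p values of 0.391 without the block and 0.210 with it. It was 0.18 from the deposited coverage and 0.18 with a pseudocount of 5, and 0.54 with the block and without pair 1 (limma adjusted p 0.0623).

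The Rc3h2 value also depended on which entry of the tables was read. Besides the reference gene, each table holds loci that were assembled separately for each library, and for Rc3h2 the reference gene held 70.1, 84.7 and 72.9% of the FPKM of the overlapping locus with agonist and 77.1, 75.3 and 52.7% with vehicle. Read from the locus, Rc3h2 had 5.95, 5.85 and 6.16 FPKM with agonist, against 5.79, 4.11 and 5.23 with vehicle. These values did not overlap, by a narrow margin (lowest with agonist 5.85, highest with vehicle 5.79), and the ends of the locus differed between libraries. How often assembled loci do not overlap was not counted, and among tested reference genes the share was 19.4%. The log2 difference was 0.22, which was not tested. For Zc3h12d the reference gene held 92.0 to 100.0% of its locus, with a locus difference of 0.04, and for the other 7 genes the locus changed the log2 difference by no more than 0.01. Rc3h1 lies at chr1:160906418-160974978 on the plus strand (ENSMUSG00000040423.10) and Rc3h2 at chr2:37370069-37422903 on the minus strand (ENSMUSG00000075376.10).

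Replicate 1 was the highest library of its group in both groups for 6 of the 9 genes, and replicate 2 the lowest for 7. How often this held over all tested genes was not counted, so it cannot be read as a trait of these genes. Likeness of profile was measured as the root mean square difference of centred log2(FPKM + 1) over the 6 libraries, where 0 is an identical profile. Nearest to Zfp36 were Trav13n-2 (0.0882) and Zfp385a (0.0970), where the median gene was at 0.327. Zfp36l1 was nearest to Pcmtd2 (0.0476) and Klhl24 (0.0518), and Zfp36l2 to Leng9 (0.0268) and Itgb3bp (0.0313). Btg1 was nearest to Bcl2l11 (0.0962), which encodes the pro-apoptotic protein BIM, and to Fam132a (0.0982), where the median gene was at 0.493. Btg2 was nearest to Gm26740 (0.0633) and to Stat3 (0.0653), a transcription factor of cytokine signalling. For Zc3h12a the nearest were Lactb2 (0.0150) and Med23 (0.0194), for Zc3h12d Lancl1 (0.0476) and Sept8 (0.0504), for Rc3h1 Dock11 (0.0258) and Aak1 (0.0280), and for Rc3h2 Insl6 (0.0661) and Ccdc102a (0.0736). None of the 9 genes was among the 2 nearest of another.

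From lists of decay machinery and known targets, 110 genes were tested, Zc3h12a among them. Without the block 0 of the 110 passed in limma, and 20 had an unadjusted p under 0.05, where the share of all tested genes was 14.0%. With it 11 of the 110 rose and 10 fell, where the shares of all tested genes were 4.09 and 6.41%. With 1 pair left out, between 0 and 4 of the 110 passed.

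Tob1 and Tob2, which share the BTG domain with Btg1 and Btg2, also rose. Btg3, a further BTG gene, did not pass (log2 0.16, limma adjusted p 0.660 without the block and 0.355 with it), and its groups overlapped. Of 4 tested relatives of the families, 2 rose and 0 fell, with a median log2 difference of 0.31. Of all tested genes 4.09% rose and 6.41% fell, with a median of -0.03. Tob2, an antiproliferative protein that links CCR4-NOT to poly(A)-binding protein, had 49.2, 46.9 and 49.7 FPKM with agonist, against 35.7, 33.0 and 30.9 with vehicle, with no overlap. Its log2 difference of 0.54 had a limma adjusted p of 0.0513 without the block and 0.0191 with it. Tob1, its paralog, averaged 13.9 ± 3.13 FPKM with agonist and 9.90 ± 2.70 with vehicle (SD, n = 3 each), and passed with the block (log2 0.45, adjusted p 0.0210) and not without it (0.392). The groups of Tob1 overlapped.

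The enzymes that these adaptors recruit did not pass. Of 20 tested deadenylase and poly(A)-binding protein genes, 0 passed in limma with or without the block, and 6 (with) and 3 (without) had an unadjusted p under 0.05, near the shares of all tested genes, 29.8% with the block and 14.0% without it. Without the block, the smallest unadjusted p values were those of Cnot4, a ubiquitin ligase that associates with CCR4-NOT (18.6 ± 0.235 FPKM with agonist and 16.04 ± 0.196 with vehicle, adjusted p 0.0555 with the block), and Pabpc4, a poly(A)-binding protein (28.4 ± 2.75 with agonist and 38.4 ± 7.15 with vehicle, adjusted p 0.0747 with the block). Of 10 nonsense-mediated decay genes 0 passed, and 1 had an unadjusted p under 0.05 in each fit, no more than the same shares of all tested genes. The smallest p values there without the block belonged to Smg5 (24.4 ± 0.849 FPKM with agonist and 27.8 ± 1.30 with vehicle) and Smg9 (15.0 ± 0.370 with agonist and 16.6 ± 0.814 with vehicle).

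In the machinery that degrades the deadenylated RNA, the genes that fell were subunits of the exosome and of the LSM ring. Of 17 exosome and 3′-5′ decay genes, 5 fell and 1 rose with the block, with a median log2 difference of -0.12. Of all tested genes 6.41% fell and 4.09% rose, with a median of -0.03. Exosc5 averaged 18.8 ± 0.447 FPKM with agonist and 24.8 ± 1.49 with vehicle, with no overlap (log2 -0.38, limma adjusted p 0.109 without the block and 0.0253 with it). Exosc7 (21.8 ± 2.70 FPKM with agonist and 28.7 ± 4.50 with vehicle) and Exosc1 (9.76 ± 0.944 FPKM with agonist and 13.3 ± 2.37 with vehicle), further parts of the exosome core, also fell. Their limma adjusted p values were 0.293 and 0.290 without the block, and 0.0219 and 0.0360 with it. Hbs1l, a ribosome rescue factor, rose (40.7 ± 2.35 FPKM with agonist and 33.5 ± 2.99 with vehicle, limma adjusted p 0.269 without the block and 0.0331 with it). Of 19 decapping and 5′-3′ decay genes, 2 fell and 0 rose: Lsm2 (40.2 ± 5.46 FPKM with agonist and 50.6 ± 7.21 with vehicle, adjusted p 0.0273) and Lsm7 (33.1 ± 7.43 FPKM with agonist and 44.3 ± 6.28 with vehicle, adjusted p 0.0493). Without the block the limma adjusted p was 0.364 for Lsm2 and 0.334 for Lsm7, and both overlapped between groups. Both Lsm proteins also serve in the splicing machinery.

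Among 9 other RNA-binding regulators of stability, 1 rose: Arid5a, a stem-loop binder that protects mRNAs from Regnase-1, averaged 37.0 ± 2.15 FPKM with agonist and 28.5 ± 2.63 with vehicle, with no overlap (log2 0.37, limma adjusted p 0.172 without the block and 0.0269 with it). Among 11 upstream regulators, 1 rose: Malt1, the protease that cleaves Regnase-1 and Roquin proteins, averaged 24.99 ± 1.59 FPKM with agonist and 21.1 ± 2.27 with vehicle, with no overlap (log2 0.24, adjusted p 0.339 without the block and 0.0459 with it). The share of all tested genes that rose was 4.09%.

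Known target mRNAs moved in both directions. Of all tested genes 4.09% rose and 6.41% fell with the block, with a median log2 difference of -0.03. Of 21 listed targets of ZFP36 proteins, 12, most of them cytokines and chemokines, were too low to test, and of the 9 tested 2 rose and 1 fell, with a median log2 difference of -0.12. The kinase gene Pim1 fell (228 ± 25.5 FPKM with agonist and 289 ± 32.7 with vehicle, limma adjusted p 0.0243 with the block). The survival gene Mcl1 (134 ± 18.4 FPKM with agonist and 111 ± 18.8 with vehicle, adjusted p 0.0325) and the cytokine gene Il10 (8.43 ± 3.27 FPKM with agonist and 5.90 ± 3.38 with vehicle, adjusted p 0.0465) rose. The groups overlapped for both. Tnf, also on the Regnase and Roquin list below, averaged 30.3 FPKM with agonist and 40.5 with vehicle, with no overlap. It did not pass (log2 -0.41, limma adjusted p 0.225 without the block and 0.0884 with it). Of 16 listed targets of Regnase and Roquin proteins, 4 (Il6, Il12b, Il1b and Il2) were too low to test, and of the 12 tested, 1 of them Zc3h12a itself, 4 rose and 2 fell, with a median of 0.10. Tnfrsf4, the co-stimulatory receptor OX40, averaged 527 ± 45.0 FPKM with agonist and 354 ± 54.6 with vehicle, with no overlap (log2 0.58, adjusted p 0.0187 with the block). Icos, another co-stimulatory receptor (163 ± 26.9 FPKM with agonist and 121 ± 14.8 with vehicle, adjusted p 0.0220), and Nfkbiz, an atypical IκB (11.1 ± 2.19 FPKM with agonist and 8.27 ± 1.86 with vehicle, adjusted p 0.0253), also rose, with groups that overlapped. Ctla4 had the highest difference on this list (log2 0.65), with no overlap. It did not pass (limma adjusted p 0.156 without the block and 0.0711 with it). Irf4, a transcription factor of activated T cells, fell (22.1 ± 1.31 FPKM with agonist and 33.3 ± 5.80 with vehicle, adjusted p 0.0253), with a log2 difference of -0.56. Each of the 7 target genes named here as risen or fallen missed the threshold without the block.

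**Figure D4:**
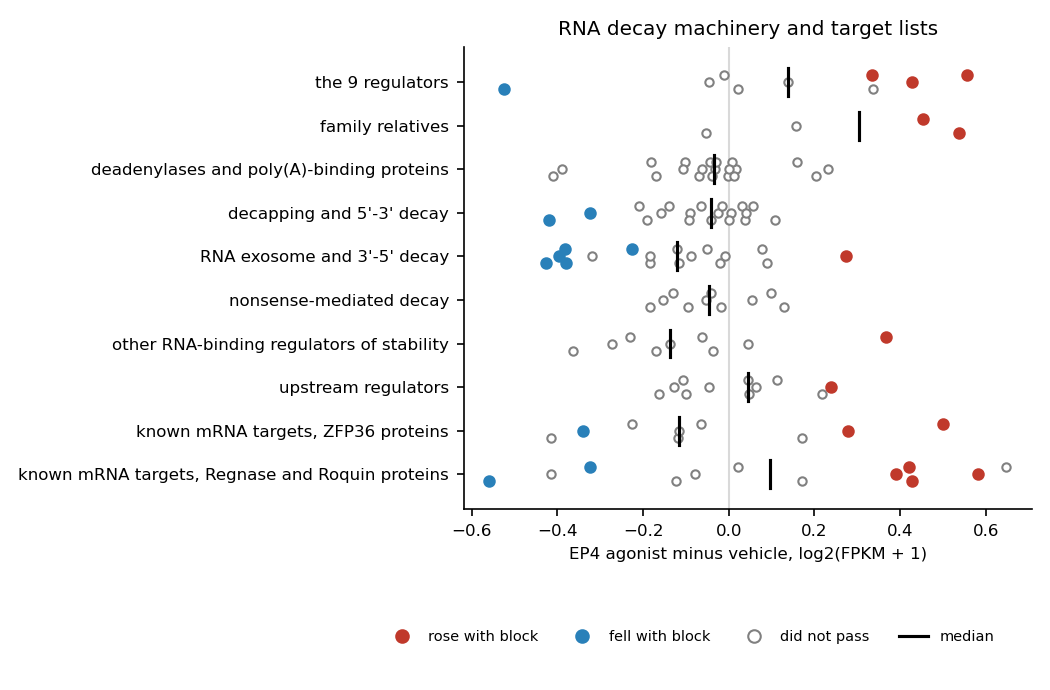
Log2 difference, EP4 agonist minus vehicle, of every tested gene in the 9 regulators and 9 lists of decay machinery and targets, with 1 point per gene, filled where the adjusted p with the replicate block was under 0.05, and a bar at each median. The family relatives have the highest median (0.31), the deadenylase row holds no filled point, and the exosome row holds 5 genes that fell. Of all tested genes 4.09% rose and 6.41% fell with the block.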

How the data were processed

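The 6 libraries, 3 per group, were made with a stranded poly(A) kit, per the labels' protocols. Per the submitters' processing notes, Trim Galore and HISAT2 were used with the mm10 build, and no version is stated. Which program computed the abundances, from which annotation and with which strand setting, is not given in the sources used here. The authors deposited 1 table per library with coverage, FPKM and TPM for 47643 reference genes and 19801 to 20833 loci assembled from that library, per the file headers. The deposited FPKM were used as they stand, coverage served as an alternative, and TPM was left out because it sums to 1000000 over the assembled loci alone. Fragment counts are unknown, so no counting interval is given. The constant ratio of coverage to FPKM in 31.5 to 32.6% of rows gave the aligned bases.

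Genes with at least 1 FPKM in 3 or more libraries were tested on log2(FPKM + 1) with limma 3.58.1 in R 4.3.3, with statmod 1.5.0 for the robust variances and an intensity trend. P-values were adjusted by Benjamini-Hochberg over all 12186 genes with a threshold of 0.05. The unblocked fit was checked on simulated data with changes larger than those reported here, and the blocked fit was not simulated. Tables and plots used Python 3.11.15, pandas 2.3.3, numpy 2.4.6 and matplotlib 3.10.9. Deviations from group means correlated at 0.512, 0.404 and 0.321 for same-numbered libraries and between -0.353 and 0.002 for others. Deviations within a group cancel out, so positive values for same-numbered libraries push the others down. The values of the others are therefore not separate evidence of pairing. Each of the 3 same-numbered correlations exceeded 0.1, and same-numbered libraries were therefore treated as pairs. The pairing comes from these correlations, since the labels do not say what the number stands for. The unblocked fit is the primary one.

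The 9 genes and all lists were chosen with earlier results of these data known. From each list the text names up to 4 genes that passed with or without the block, by smallest unadjusted p without it, or the 2 with the smallest where none passed, and for each of the 9 genes the 2 nearest in profile. Btg3, Tnf and Ctla4 did not pass and are named in addition. Gene coordinates are those of the deposited tables. For 6 of the 9 genes they equal GENCODE M21, and for Zfp36l1, Btg1 and Zc3h12d they differ by up to 6 bases at an end. Exosc6 was not analysed here. Below the filter were Zfp36l3, Btg4, Zc3h12b and Zc3h12c of the relatives, 12 of 21 ZFP36 targets (Il2, Ifng, Csf2, Il3, Il6, Il22, Il23a, Cxcl1, Cxcl2, Ccl3, Ccl4 and Ptgs2) and 4 of 16 Regnase and Roquin targets. Alternatives changed the pseudocount, filter, scaling, unit, block and the libraries kept, 1 at a time except where named.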

Additional observations from a re-analysis of the deposited data

How the results depend on the processing

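With the replicate number as a block, the pairing read from the libraries, 4 of the 9 genes passed in place of 0, 1279 of all tested genes in place of 48, and 21 list genes in place of 0. With the block and quantile normalization together these counts were 4, 997 and 19. Without pair 1, 2 or 3 in the blocked fit, the 9 genes gave 0 to 1 calls, all tested genes 0 to 241 and the lists 0 to 4. Without the block, leaving out 1 library gave 0 to 0, 0 to 133 and 0 to 3. All tested genes gave 2 calls with no filter on low FPKM, 75 after upper quartile scaling and 82 from coverage. The lists gave 1 call each with a pseudocount of 5, an FPKM of at least 5, upper quartile scaling, quantile normalization, median of ratios scaling and coverage. Zc3h12d turned from -0.01 to 0.0290 after upper quartile scaling, 0.0252 after quantile normalization with or without the block, 0.0178 after median of ratios scaling and 0.0105 without mitochondrial and ribosomal protein genes. It ran from -0.19 to 0.14 with 1 library left out and from -0.0456 to 0.0540 with 1 pair left out of the blocked fit. Zfp36l2 turned to 0.0264 after quantile normalization with or without the block, and ran from -0.126 to 0.0522 and from -0.11 to 0.0094 when libraries or pairs were left out. Zc3h12a ran from -0.0423 to 0.0684 and from -0.0183 to 0.0519. The causes were not tested. The other 6 genes kept their direction under every alternative run, but Rc3h2 was not tested at an FPKM of at least 5. The precision here is set by 3 libraries per group, and differences as small as those of Zfp36l2, Zc3h12a and Zc3h12d could not be detected.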
